A study of Ovis aries with 36 samples.

Results

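The genes of the circadian clock and the REV-ERB receptors were examined in fetal sheep muscle and adipose tissue as a set of 10 listed names: NR1D2, NR1D1, PER1, PER2, PER3, ARNTL, CLOCK, CRY1, CRY2 and TEF. A gene entered the set where its name was the name given to a locus in the count files, and loci of the same name were summed. Of the 10 names, 8 matched a locus in every tissue. PER1 and PER2 did not match and were not analysed here. The 8 genes were among 31426 named or unnamed loci in muscle, 31089 in subcutaneous fat and 31851 in perirenal fat after summing. The set was selected on measured values of these libraries, the level of NR1D2 in subcutaneous fat, seen to be higher with distillers grains, so that difference is described below and not tested. The question was whether the other clock genes moved with it in any tissue.

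The molecular clock is a feedback loop of transcription that runs over about a day in nearly all cells. CLOCK and ARNTL (BMAL1) form the activating pair, and they switch on the PER and CRY genes, whose proteins return to block CLOCK and ARNTL. They also switch on NR1D1 and NR1D2, the REV-ERB alpha and REV-ERB beta receptors, which bind heme and repress ARNTL and other genes. TEF belongs with DBP and HLF to the PAR bZIP factors, which carry the rhythm on to output genes. In adult muscle and fat the REV-ERB receptors are known for roles in lipid handling, oxidative metabolism and adipocyte differentiation. Because the members of the loop peak at different hours, levels in tissue depend on the hour of collection, and the hour at which each ewe was necropsied is not given in the sources used here.

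RNA from 26 fetuses of 15 dams was combined into 12 pools in each of 3 tissues, and the 36 pools were sequenced. The labels give the maternal diet as Corn (CN), Dried corn distillers grains (DG) or Hay (HY, fed as alfalfa haylage), and the tissue as longissimus dorsi muscle, subcutaneous adipose depot or perirenal adipose depot. Dams were Polypay ewes bred to a single sire and fed individually from mid gestation until necropsy in late gestation, and no unfed or standard-diet group serves as a control, so each diet was compared with each other diet. Each tissue and diet had 4 pools, labelled F1 and F2 for female and M1 and M2 for male fetuses. The study lists a single fetus in CN pool F2 and more than that in every other pool. Some pools of a diet held fetuses of the same dam, so the p-values measure the spread between pools and not between dams.

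Total counts ranged from 13749762 to 29625146 in muscle, from 6705766 to 20272024 in subcutaneous fat and from 7802700 to 15913813 in perirenal fat. The markers of the labelled tissues were present: 12 skeletal muscle markers summed to between 119900 and 180700 CPM (counts scaled to library size) in muscle pools, and 6 adipocyte markers to between 6336 and 17010 CPM in perirenal pools. Subcutaneous pools differed widely among themselves. Their 12 muscle markers (ACTA1, CKM, TTN and others) summed to between 4439 and 71080 CPM with CN, between 1096 and 151800 CPM with DG and between 955 and 130800 CPM with HY, and none of the 12 was at 0 in any diet. Their 6 adipocyte markers summed to between 2116 and 11080 CPM. In pooled tissue, fewer cells of a type and less RNA per cell cannot be told apart.

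In Oar_v3.1, as the subcutaneous files place them, NR1D2 lies on chromosome 26 (40487127 to 40503568), NR1D1 on chromosome 11 (39957723 to 39977933), PER3 on chromosome 12 (43652156 to 43723214) and CLOCK on chromosome 6 (70845529 to 70987644). ARNTL (38811032 to 38967274) and CRY2 (74106271 to 74130609) lie on chromosome 15, and CRY1 (175339682 to 175432659) and TEF (216504358 to 216527479) on chromosome 3. NR1D1 shares its whole span with THRA, the thyroid hormone receptor alpha gene, in all 3 tissues. ARNTL shares its span with BTBD10 in all 3 tissues, and CLOCK shares its span with TMEM165 in muscle and subcutaneous fat. The strand setting of the counting is not given in the sources used here, so reads of NR1D1 and THRA cannot be told apart with certainty, and the same holds for ARNTL with BTBD10 and for CLOCK with TMEM165. The values of NR1D1, ARNTL and CLOCK are uncertain for that reason. In perirenal fat CRY1 shares its span with an unnamed locus, so its perirenal values are uncertain too.

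NR1D2 in subcutaneous fat was the gene and the contrast that chose the set. Its level with DG was 12.0, 31.4, 14.04 and 21.3 CPM in pools F1, F2, M1 and M2. With CN it was 6.37, 4.43, 7.37 and 6.34 CPM, and with HY it was 4.53, 6.71, 6.44 and 7.13 CPM in the same order of pools. Every DG pool lay above every CN and HY pool, and the DG pools spread over a wider range (coefficient of variation 44.5%) than the CN (20.03%) or HY pools (18.6%). The fitted log2 difference was 1.69 ± 0.31 (SE) between DG and CN and 1.66 ± 0.30 between DG and HY, about 3.23-fold and 3.17-fold. Leaving out each pool in turn, the first difference ranged from 1.39 to 1.95 and the second from 1.33 to 1.88. Between HY and CN, a contrast the choice did not use, the log2 difference was 0.03 ± 0.30 (edgeR quasi-likelihood, FDR 0.998).

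The level of NR1D2 was set beside the muscle RNA of each subcutaneous pool, which also moved with the DG group. All 12 muscle markers had a fitted difference above 0 between DG and CN and between DG and HY (median log2 difference 1.61 and 1.17), with a median summed level of 82130 CPM with DG, 18130 CPM with CN and 8121 CPM with HY. All 6 adipocyte markers had a difference below 0 (median -0.77 and -0.81). Of the 12 and the 6, 0 passed FDR 0.05 in these comparisons by edgeR, and 0 of 12 and at most 1 of 6 had an unadjusted p of 0.05 or less, and DESeq2 called 0 of each. The DG pool with the least muscle RNA, M1, had a mean of 5.87 log2 CPM over the 12 muscle markers and held NR1D2 at 14.04 CPM. The HY pool with the most, F2, had a marker mean of 12.6 and held NR1D2 at 6.71 CPM. With the marker mean as a covariate in the fit, the log2 difference of NR1D2 was 1.65 ± 0.31 between DG and CN and 1.59 ± 0.31 between DG and HY. Further marker lists moved with the DG pools. The summed level of 2 brown adipocyte markers was 23.8 to 74.7 CPM with DG, 48.0 to 165 CPM with CN and 107 to 150 CPM with HY, and that of 4 epidermal markers, of which 1 was at 0, was 23.6 to 36.5 CPM with DG, 43.1 to 132 CPM with CN and 40.7 to 138 CPM with HY. The erythroid marker was 6.17 to 8.96 CPM with DG, 2.56 to 15.3 CPM with CN and 9.34 to 25.9 CPM with HY. The DG pools were thus below all HY pools for each of these levels, and below all CN pools for the epidermal sum. Of the 2 epidermal markers tested, 1 had a fitted difference above 0 between DG and CN and 0 between DG and HY. KRT14 had the lower FDR by edgeR, 0.259 between DG and CN and 0.158 between DG and HY, and DESeq2 called it in both. Of the 2 brown adipocyte markers DESeq2 called CIDEA between DG and HY (edgeR FDR 0.115) and 0 between DG and CN. Over all loci DESeq2 called 261 between DG and CN and 924 between DG and HY. Pools of single loci did not overlap for 6.8% of loci between DG and CN and 9.21% between DG and HY. The part of muscle RNA and of these marker lists in the NR1D2 difference was not tested. The fits with the covariate only describe the contrast that chose NR1D2.

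**Figure D1:**
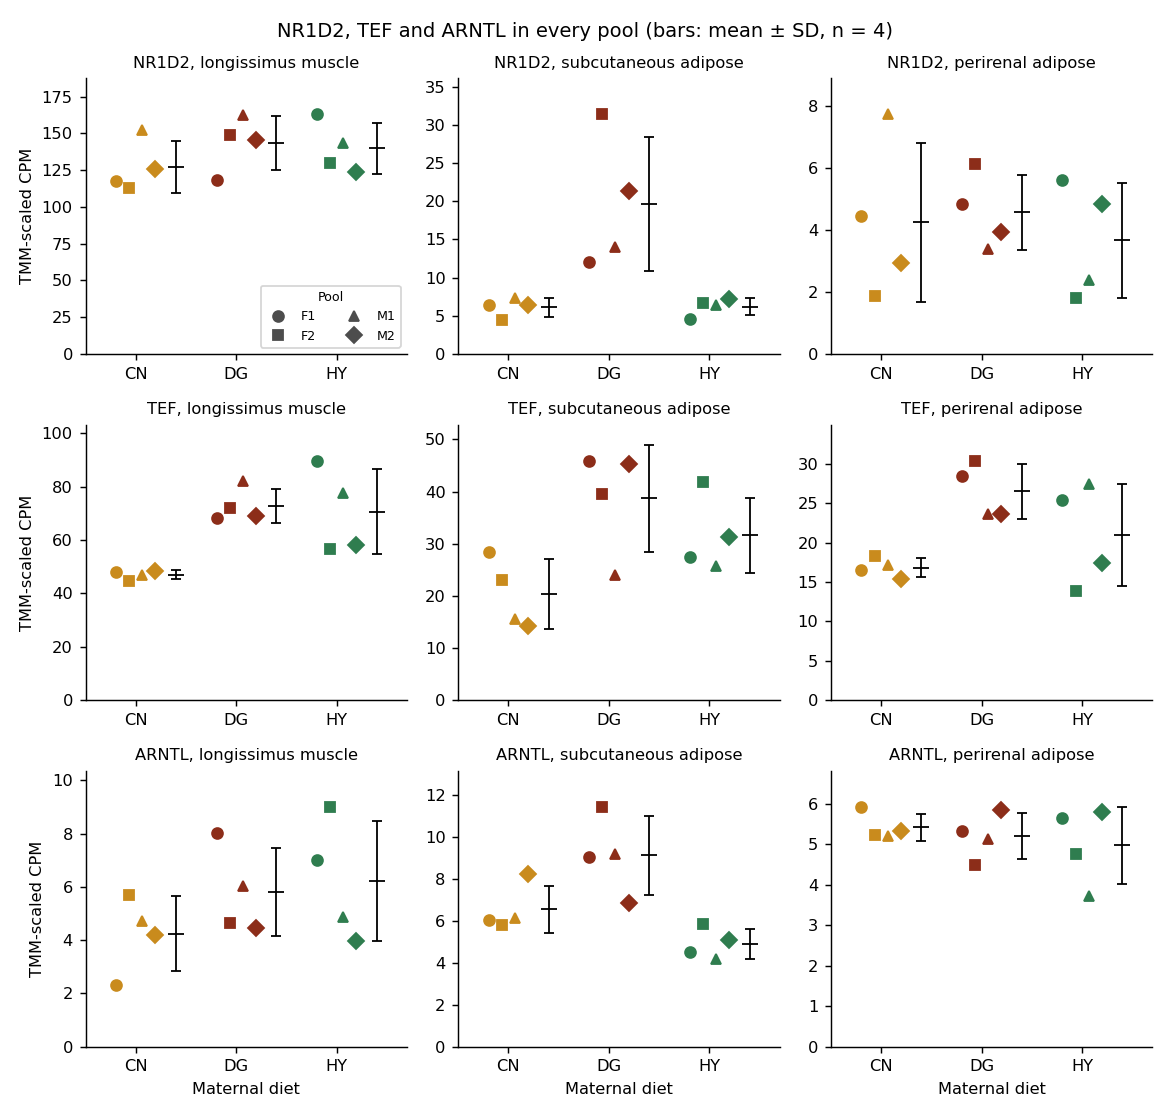
Level (TMM-scaled CPM, linear axes from 0) of NR1D2, TEF and ARNTL in each pool by maternal diet, 1 row of panels per gene and 1 column per tissue; marker shapes give the pool, and black bars the mean ± SD of 4 pools. NR1D2 with DG stands at 12.0 to 31.4 CPM in subcutaneous fat against 4.43 to 7.37 CPM in the other pools, while TEF in muscle stands at 44.7 to 48.4 CPM with CN and at 56.7 CPM or more in all other pools.

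**Figure D2:**
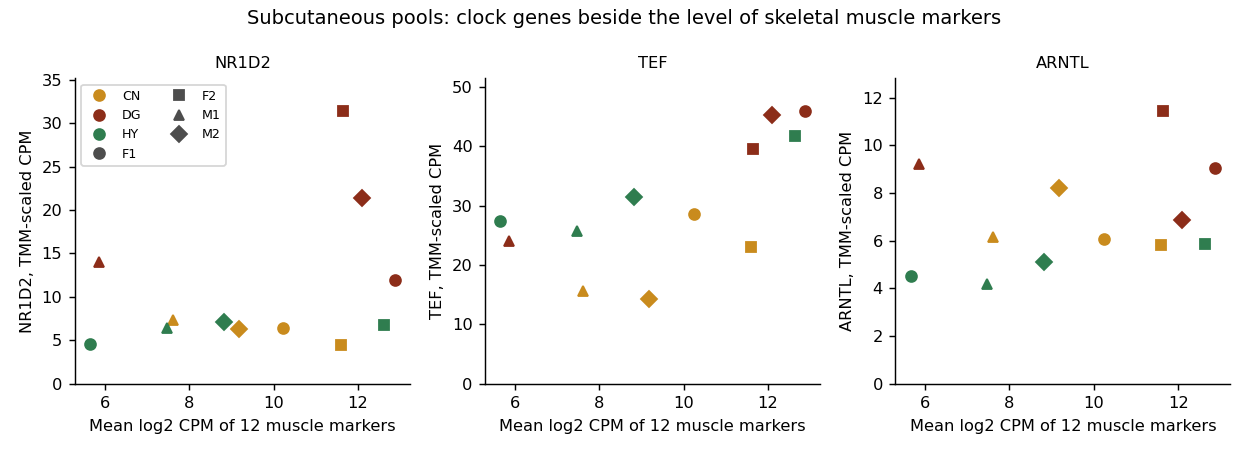
Level (TMM-scaled CPM) of NR1D2, TEF and ARNTL in the 12 subcutaneous pools against the mean log2 CPM of 12 skeletal muscle markers in the same pool; colours give the diet and shapes the pool. The marker mean runs from 5.66 to 12.9, and the 4 DG pools of NR1D2 lie above all others at both ends of that range.

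Outside subcutaneous fat NR1D2 did not pass the test between diets. In muscle it was 117, 113, 152 and 126 CPM with CN, 118, 149, 162 and 146 CPM with DG, and 163, 130, 143 and 124 CPM with HY. The 3 diets overlapped, and the log2 difference between DG and CN was 0.18 ± 0.13 (FDR 0.523). In perirenal fat NR1D2 was low, at 4.46, 1.87, 7.74 and 2.93 CPM with CN, 4.85, 6.15, 3.38 and 3.93 CPM with DG, and 5.63, 1.79, 2.40 and 4.84 CPM with HY. Here 20 to 80 reads per pool stood behind the values, and the log2 difference between DG and CN was 0.12 ± 0.43 (FDR 0.961).

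In subcutaneous fat the 7 other clock genes were tested between diets, and 0 of 7 passed FDR 0.05 between DG and CN or between DG and HY, and 0 of 8 between HY and CN. The background was the same in all 3 comparisons, with 0.0% of 17745 loci past that threshold by edgeR. Between DG and HY this share rested on single pools, with 567 loci called without HY F2 and 101 without DG M1. At an unadjusted p of 0.05 or less, TEF and ARNTL were among 2655 loci between DG and CN, TEF was among 776 between HY and CN, and ARNTL was among 3221 between DG and HY. DESeq2 called 261, 0 and 924 loci in these comparisons, and of the clock genes it called ARNTL between DG and HY. All 7 others had a fitted difference above 0 between DG and CN, with a median log2 difference of 0.48 against -0.01 over all loci tested. The muscle markers also had their highest median with DG, and NR1D1, TEF, CRY1 and CRY2 were higher in muscle than in subcutaneous fat. With the muscle marker mean as a covariate, the 7 differences ranged from 0.19 for CRY1 to 0.78 for TEF. Between DG and HY they then ranged from -0.06 for NR1D1 to 0.89 for CLOCK. The part of muscle RNA in these differences was not tested. Pools that did not overlap made up 6.8% of loci between DG and CN, 2.82% between HY and CN and 9.21% between DG and HY.

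ARNTL, the activating partner of CLOCK and a target of repression by the REV-ERB receptors, had the lowest FDR of the tested members between DG and HY. Its level was 9.05, 11.4, 9.20 and 6.85 CPM with DG, 6.06, 5.80, 6.14 and 8.22 CPM with CN, and 4.53, 5.86, 4.19 and 5.09 CPM with HY. All DG pools lay above all HY pools, while DG and CN overlapped through CN pool M2. The log2 difference between DG and HY was 0.89 ± 0.22 (FDR 0.115, against 10.9% of loci at FDR 0.20 or less). It was at FDR 0.0469 without HY pool F2 and at 0.00694 with DESeq2, and between 0.00694 and 0.36 over 19 alternatives. Between DG and CN it was 0.48 ± 0.22 (FDR 0.332). CLOCK itself stood at 2.48 to 6.64 CPM with DG and 1.64 to 4.58 CPM with HY, a log2 difference of 0.73 ± 0.39 (FDR 0.338). The other differences between DG and HY were 0.51 ± 0.28 for CRY1, 0.22 ± 0.33 for CRY2, 0.17 ± 0.27 for NR1D1 and -0.03 ± 0.31 for PER3 (FDR 0.344 or more). Between HY and CN the 8 members ranged from -0.41 for ARNTL to 0.63 for TEF (FDR 0.941 or more).

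TEF in subcutaneous fat was 45.9, 39.6, 23.998 and 45.3 CPM with DG, 28.5, 23.0, 15.6 and 14.3 CPM with CN, and 27.5, 41.8, 25.7 and 31.4 CPM with HY. DG pool M1 lay within the CN range, and the log2 difference between DG and CN was 0.92 ± 0.27 (FDR 0.259). Muscle RNA moved with TEF across these pools: the 4 highest TEF levels were in the pools DG F1, DG M2, HY F2 and DG F2, whose marker means of 12.9, 12.1, 12.6 and 11.6 were also the 4 highest. With the marker mean as a covariate the difference from CN was 0.78 ± 0.17, and that between DG and HY went from 0.29 ± 0.26 to 0.02 ± 0.18. NR1D1, the paralog of NR1D2, ranged from 13.4 to 21.4 CPM with DG and from 9.66 to 16.8 CPM with CN, a log2 difference of 0.54 ± 0.27 (FDR 0.358), and THRA over the same span had 0.91 ± 0.35 (FDR 0.284). The repressors CRY1, CRY2 and PER3 had differences between DG and CN of 0.32 ± 0.28, 0.63 ± 0.33 and 0.22 ± 0.31 (FDR 0.376 or more).

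In longissimus dorsi muscle TEF was the member that differed between diets. It rose 1.55-fold with DG over CN (log2 difference 0.63 ± 0.14, FDR 0.0442) and 1.503-fold with HY over CN (0.59 ± 0.14, FDR 0.0409). Its level with CN was 48.0, 44.7, 46.7 and 48.4 CPM, a coefficient of variation of 3.47%. With DG it was 68.1, 72.1, 82.0 and 69.1 CPM, and with HY 89.6, 56.7, 77.8 and 58.2 CPM. No CN pool overlapped a DG or HY pool. Between DG and HY the difference was 0.05 ± 0.14 (FDR 0.9998).

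TEF was 1 of 8 members called in each of the comparisons with CN, beside 1.02% of 18157 loci between DG and CN and 2.95% between HY and CN. These shares moved with single pools: the 186 loci of the first comparison became 9 without DG M1 and 340 without CN F2, and the 536 of the second became 30 without HY F1 and 1247 without CN F2. Pools did not overlap for 8.69% and 12.5% of loci in these comparisons, and for 1.82% between DG and HY. Both calls lay near the threshold. Leaving out each of the 12 pools in turn, the FDR of the DG difference ranged from 0.0354 to 0.145 and stayed at or under 0.05 only without HY F1 or HY F2, and that of the HY difference ranged from 0.0301 to 0.144 and stayed there only without CN F2, DG F1 or HY M2. The fitted size moved less, from 0.56 to 0.67 and from 0.45 to 0.67. CN libraries were also the shallowest in muscle, with 13749762 to 19387181 counts against 20370147 to 29625146 with DG and 19071024 to 22831074 with HY, and the part of depth in the difference was not tested.

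CRY1, a repressor of CLOCK and ARNTL, did not pass FDR 0.05 in muscle. It was 54.6, 40.5, 36.7 and 39.3 CPM with CN, 33.5, 38.3, 37.1 and 34.3 CPM with DG, and 30.2, 31.5, 31.5 and 35.5 CPM with HY. All HY pools lay below all CN pools, and the log2 difference was -0.41 ± 0.12 (FDR 0.0889, against 16.0% of loci at FDR 0.20 or less). DESeq2 put it at FDR 0.0345, and the range over 18 alternatives was 0.0345 to 0.236. Between DG and CN the difference was -0.26 ± 0.12 (FDR 0.321), where TEF was the only member at FDR 0.20 or less, beside 7.01% of loci.

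The other members overlapped between diets in muscle. CRY2 ranged from 56.0 to 76.8 CPM with CN and from 57.1 to 124 CPM with DG, where pool F1 stood apart from the other DG pools (57.1 to 76.1 CPM), and its log2 difference was 0.40 ± 0.20 (FDR 0.327). ARNTL and CLOCK, with 40 to 216 and 26 to 124 reads per pool, had differences from CN of 0.45 ± 0.31 and 0.29 ± 0.32 with DG and of 0.55 ± 0.31 and 0.39 ± 0.32 with HY, where CLOCK was at -0.03 without HY F2. PER3 had 0.17 ± 0.24 with DG and -0.09 ± 0.24 with HY, the second of which was 0.20 without CN M1. NR1D1 had 0.31 ± 0.17 with DG (FDR 0.385) and 0.22 ± 0.17 with HY (FDR 0.504). THRA over the same span rose with HY (0.80 ± 0.19, FDR 0.0416), a call kept without CN F2, DG F1 or DG M2 and lost without any other pool, and stood at 0.70 ± 0.19 with DG (FDR 0.0945). Between DG and HY 0 of 8 members passed FDR 0.05 by edgeR or by DESeq2 and 0 of 8 had an unadjusted p of 0.05 or less, beside 0.0% of loci called and 397 at that p.

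**Figure D3:**
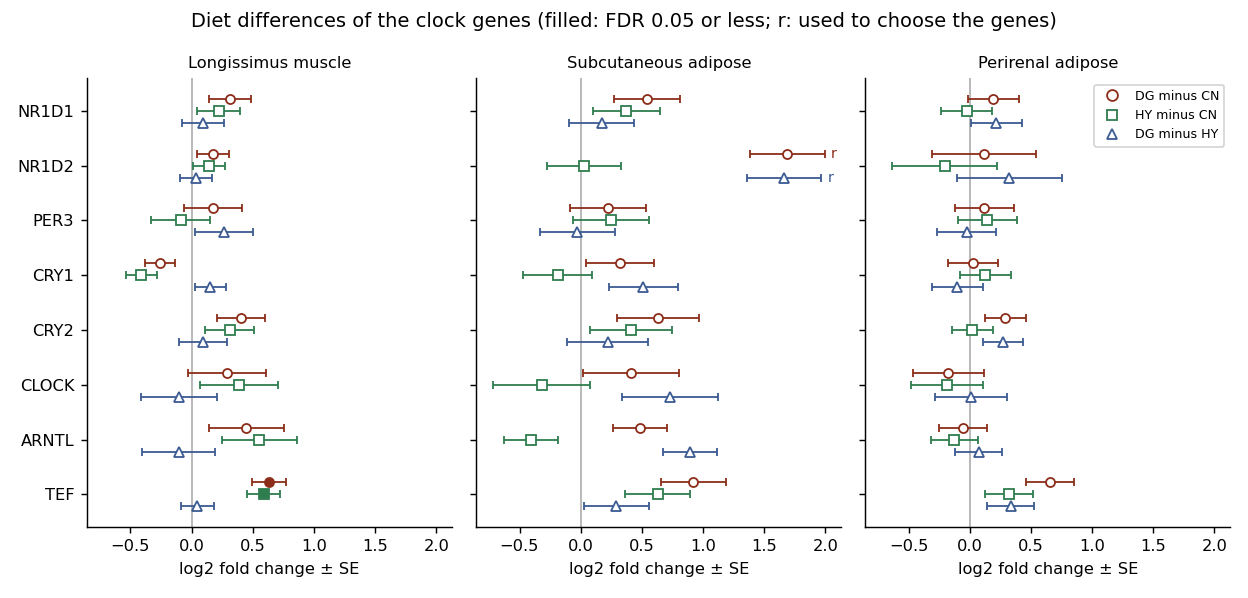
Fitted log2 fold changes ± SE of the 8 clock genes between diets in each tissue; circles are DG minus CN, squares HY minus CN and triangles DG minus HY. Filled symbols passed FDR 0.05, which TEF alone did, in muscle (0.63 and 0.59); r marks the NR1D2 differences of 1.69 and 1.66 that chose the genes.

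In perirenal fat 0 of 8 members passed FDR 0.05 in any diet comparison by edgeR or DESeq2, beside 0.0% of 17925 loci by edgeR in each. At an unadjusted p of 0.05 or less, TEF was among 1765 loci between DG and CN, and 0 of 8 members were among 420 between HY and CN or 1787 between DG and HY. The study lists the same pools for every tissue, so perirenal and muscle values come from the same fetuses and are not independent. TEF was the member whose pools separated between DG and CN: 28.5, 30.4, 23.6 and 23.6 CPM with DG against 16.5, 18.3, 17.1 and 15.4 CPM with CN. With HY it was 25.4, 13.8, 27.4 and 17.4 CPM, on both sides of the CN pools. The log2 difference between DG and CN was 0.66 ± 0.19 (FDR 0.223, and 0.0842 to 0.494 over 18 alternatives), and 6.5% of loci had pools that did not overlap in this comparison. That share was 1.62% between HY and CN and 5.53% between DG and HY, with 0 of 8 members in either.

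The remaining perirenal values were close between diets. ARNTL ranged from 3.72 to 5.91 CPM over all 12 pools and CRY1 from 5.20 to 9.86 CPM. CRY2 stood at 34.8 ± 4.41 CPM (SD, n = 4) with DG, 28.4 ± 5.33 with CN and 28.8 ± 5.51 with HY, and its log2 difference between DG and CN was 0.29 ± 0.17 (FDR 0.622). PER3, CLOCK, NR1D1, CRY1 and ARNTL had differences between DG and CN from -0.18 to 0.19, each smaller than its SE. Over the 8 members the differences ranged from -0.21 for NR1D2 to 0.32 for TEF between HY and CN, and from -0.10 for CRY1 to 0.33 for TEF between DG and HY (FDR 0.575 or more).

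Whether a diet difference changed with the tissue was tested in a fit of all 36 libraries with the pool as a block. For the members not used in the choice, 0 passed FDR 0.05 in any pair of tissues, beside 0.135% of 13322 loci between the 2 fat depots and 0.0% in each comparison with muscle. At an unadjusted p of 0.05 or less these were 0 of 7 members and 2429 loci between the depots, 1 of 7 (ARNTL) and 1803 loci between subcutaneous fat and muscle, and 0 of 8 and 531 loci between perirenal fat and muscle. The HY difference of ARNTL from CN in subcutaneous fat minus that in muscle was -0.97 on the log2 scale (FDR 0.294). TEF, whose DG difference from CN was 0.63 in muscle, 0.92 in subcutaneous and 0.66 in perirenal fat, gave tissue contrasts of that difference of 0.24, 0.24 and 0.00, and the FDR was 0.695 or more. The DG difference of NR1D2 in subcutaneous fat exceeded that in perirenal fat by 1.37 and that in muscle by 1.395, given without a test since this contrast chose it. Between perirenal fat and muscle its DG difference differed by 0.03 (FDR 1.0).

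Other genes of the clock were counted from a list of 26, of which 21 matched a locus and 19 were tested within each tissue. In muscle HLF, the PAR bZIP relative of TEF, rose with both diets over CN. Its level was 0.93 to 1.22 CPM with CN, 2.45 to 3.30 CPM with DG and 2.18 to 4.62 CPM with HY, without overlap between CN and the others, on 13 to 21 reads per CN pool. The log2 difference was 1.45 ± 0.28 with DG (FDR 0.0304) and 1.65 ± 0.29 with HY (FDR 0.0148). Leaving out each pool, the first ran from FDR 0.0306 to 0.0945, above 0.05 without CN M1, CN M2, DG F1, DG F2 or DG M1, and the second from 0.0085 to 0.0616, above 0.05 without CN M1, CN M2, HY F1 or HY F2. CSNK1E, a kinase that marks PER proteins for degradation, rose with HY, from 4.66 to 8.25 CPM with CN to 9.997 to 13.9 CPM (0.92 ± 0.21, FDR 0.0368, above 0.05 without CN F1, CN M1, CN M2, HY F1, HY F2 or HY M1). DBP, the other relative of TEF, did not share this, with differences of 0.21 ± 0.16 and 0.00 ± 0.16 (FDR 0.536 and 0.997).

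In all, 1 of 19 of these genes passed FDR 0.05 between DG and CN in muscle and 2 of 19 between HY and CN, all higher than with CN, and 0 of 19 between DG and HY. DESeq2 called 2, 6 and 0. Over all loci edgeR called 186, 536 and 0 of 18157 in these comparisons, and DESeq2 689 of 18148, 1398 of 16387 and 2 of 18148. In each fat depot 0 of 19 passed in any diet comparison, the lowest FDR being 0.129 for GSK3B in subcutaneous fat between DG and HY, where 5 of 19 had an unadjusted p of 0.05 or less and DESeq2 called 1, beside 3221 of 17745 loci at that p and 924 called by DESeq2. Genes that glucocorticoids induce and immediate early genes were counted beside them. Of 6 glucocorticoid-induced genes 1 passed in muscle between HY and CN, beside 2.95% of loci: KLF9, also a rhythmic gene, at 3.03 to 6.20 CPM with CN and 7.17 to 16.6 CPM with HY (1.46 ± 0.29, FDR 0.0241, above 0.05 without CN F1, CN M1, CN M2, HY F1 or HY F2). In every other diet comparison 0 of 6 glucocorticoid-induced and 0 of 7 or 8 immediate early genes passed by edgeR. At an unadjusted p of 0.05 or less there were 0 to 3 and 0 to 2 genes, and DESeq2 called 0 or 1 in each, beside 397 to 3692 loci at that p and 0 to 1398 called by DESeq2 over the 9 diet comparisons. In subcutaneous fat the summed immediate early genes were 305 to 540 CPM with DG, 216 to 396 CPM with CN and 243 to 329 CPM with HY, and the part of these genes in the NR1D2 difference was not tested.

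The clock genes were also compared between tissues. Loci were assembled per tissue, so their spans can differ, and the part of the span in the differences below was not tested. On a scale common to the 36 libraries, NR1D2 ranged from 149 to 213 CPM in muscle (median 181), from 5.24 to 35.7 CPM in subcutaneous fat (median 8.06) and from 1.87 to 7.98 CPM in perirenal fat (median 4.22). Muscle exceeded every fat pool. The log2 difference between perirenal fat and muscle was -5.51 ± 0.18 (FDR 6.87e-18). The subcutaneous DG pools that chose NR1D2 enter the other differences, which are given without a test: -4.12 between subcutaneous fat and muscle and 1.39 between subcutaneous and perirenal fat. All 12 skeletal muscle markers were higher in subcutaneous than in perirenal fat (median log2 difference 7.27), and their part in the depot differences of genes that are high in muscle was not tested.

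NR1D1 and TEF had the same order, muscle, subcutaneous fat, perirenal fat. NR1D1 had medians of 40.7, 18.4 and 9.23 CPM and TEF of 83.8, 32.7 and 21.2 CPM, and each step differed (FDR 3.8e-05 or less). CRY1 followed it too, at 47.7, 32.5 and 7.10 CPM, with a log2 difference of 2.16 ± 0.12 between the depots (FDR 1.54e-13) and -0.62 ± 0.11 between subcutaneous fat and muscle (FDR 3.12e-05). CRY2 did not: its medians were 95.6 CPM in muscle, 30.0 CPM in perirenal fat and 6.30 CPM in subcutaneous fat, with a log2 difference of -2.25 ± 0.16 between subcutaneous and perirenal fat (FDR 1.85e-11). The highest subcutaneous pool held 10.5 CPM and the lowest perirenal pool 22.6 CPM. The CRY2 locus was also shortest in subcutaneous fat, at 24339 bases against 33345 in perirenal fat and 34856 in muscle. That of NR1D1 was longest in muscle, at 31397 bases against 20211 in subcutaneous and 20208 in perirenal fat.

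PER3 and CLOCK were highest in perirenal fat. PER3 had medians of 21.2 CPM there, 14.7 CPM in subcutaneous fat and 13.3 CPM in muscle, and the last pair did not differ beyond its error (-0.04 ± 0.14, FDR 0.802). CLOCK had 5.22, 3.67 and 3.20 CPM, where perirenal fat exceeded muscle (0.65 ± 0.22, FDR 0.00887) and the subcutaneous level lay between, with differences of -0.39 ± 0.22 from perirenal fat (FDR 0.115) and 0.25 ± 0.22 from muscle (FDR 0.305). ARNTL had 7.15 CPM in subcutaneous fat, 6.36 in muscle and 5.29 in perirenal fat. It was lower in perirenal fat than in muscle (-0.40 ± 0.14, FDR 0.0132) and than in subcutaneous fat (0.57 ± 0.14 higher there, FDR 0.00147). Subcutaneous fat and muscle differed by 0.16 ± 0.14 (FDR 0.308). The ARNTL locus was also shortest in perirenal fat, at 114264 bases against 156243 in subcutaneous fat and 165483 in muscle. The part of that shorter span in the lower level was not tested.

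Leaving NR1D2 out of the comparisons with subcutaneous fat, 6 of 7 members passed between the depots and 4 of 7 between subcutaneous fat and muscle, and 8 of 8 between perirenal fat and muscle. These shares stand beside 66.9%, 72.0% and 80.2% of 13322 loci, and a difference between tissues was common to most genes. Of the other clock genes 17, 17 and 15 of 21 passed. RORA, a nuclear receptor that binds the same sites as the REV-ERB receptors and activates there, was lower in both depots than in muscle, with log2 differences of -4.41 ± 0.17 in subcutaneous and -6.505 ± 0.20 in perirenal fat. NFIL3, a repressor at the sites that TEF activates, was higher in both depots than in muscle by 1.97 ± 0.12 and 2.29 ± 0.12. NPAS2, which can replace CLOCK, was higher in perirenal fat than in muscle by 1.66 ± 0.22 and lower in subcutaneous than in perirenal fat (log2 difference -2.56 ± 0.24) (FDR 0.00233 or less for all values of these genes named here).

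**Figure D4:**
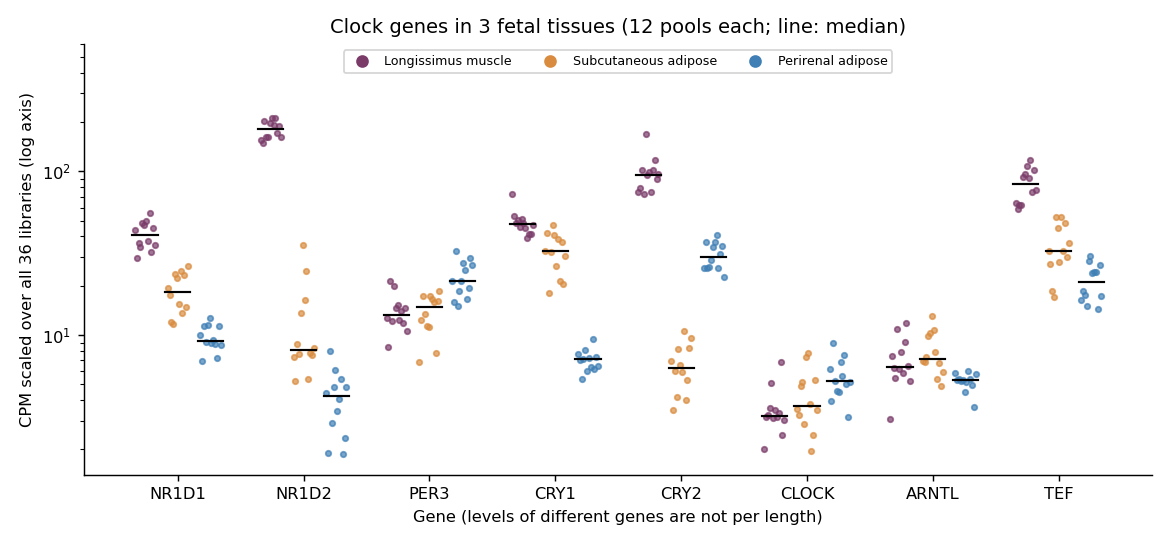
Level of the 8 clock genes (CPM scaled over all 36 libraries, log axis) in the 12 pools of each tissue, with the median as a line; levels of different genes are not per length and are not to be compared. NR1D2 spans from a median of 181 CPM in muscle to 4.22 CPM in perirenal fat, while CRY2 is lowest in subcutaneous fat (6.30 CPM) and CLOCK and PER3 are highest in perirenal fat. Locus spans differ between tissues, and that of CRY2 is shortest in subcutaneous fat.

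Whether the clock genes moved together between pools of the same diet was asked after removing the diet means from the log2 CPM, so that the difference that chose NR1D2 does not enter. Over 39 relations, NR1D2 with the other 7 and ARNTL with the remaining 6 in each tissue, 0 passed an adjusted p of 0.05 in an exact two-sided permutation test within diets (12 pools, Benjamini-Hochberg over the 39), and 5 had an unadjusted p of 0.05 or less. ARNTL and CLOCK in muscle had Pearson r = 0.83 and Spearman rho = 0.84 (permutation p = 0.0055 and 0.00398, adjusted 0.202 and 0.152), and r = 0.65 without the 2 pools farthest from the median. NR1D2 and TEF in muscle had r = 0.66 and rho = 0.66 (permutation p = 0.0155 and 0.0347, adjusted 0.202 and 0.339), and r = 0.50 without 2 pools. ARNTL had r = 0.65 with CRY2 and r = -0.72 with CRY1 in muscle (permutation p = 0.0145 and 0.0275, adjusted 0.202 and 0.267). NR1D2 and CRY2 in perirenal fat had r = -0.72 (permutation p = 0.0342, adjusted 0.267).

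In subcutaneous fat itself the r of NR1D2 between pools of a diet was 0.52 with CLOCK, 0.39 with CRY2, 0.31 with ARNTL, 0.21 with NR1D1, 0.07 with TEF, -0.04 with CRY1 and -0.06 with PER3, and the smallest permutation p was 0.189 (adjusted 0.574). With the muscle marker mean also removed, these were 0.68, 0.37, 0.29, 0.11, -0.14, -0.42 and 0.07. Over all 28 pairs of members r was above 0 for 15 in muscle, 15 in subcutaneous and 17 in perirenal fat, with medians of 0.03, 0.06 and 0.06. NR1D1 and TEF had the same sign and a large r in each tissue, 0.84, 0.86 and 0.64, and ARNTL and CLOCK had 0.83, 0.27 and 0.57. The pairs share libraries and a scale, and the shared span of NR1D1 with THRA limits the first. NR1D1 with TEF was not among the 39 relations tested. Both genes were higher in muscle than in subcutaneous fat, and the part of muscle RNA in their r there was not tested.

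**Figure D5:**
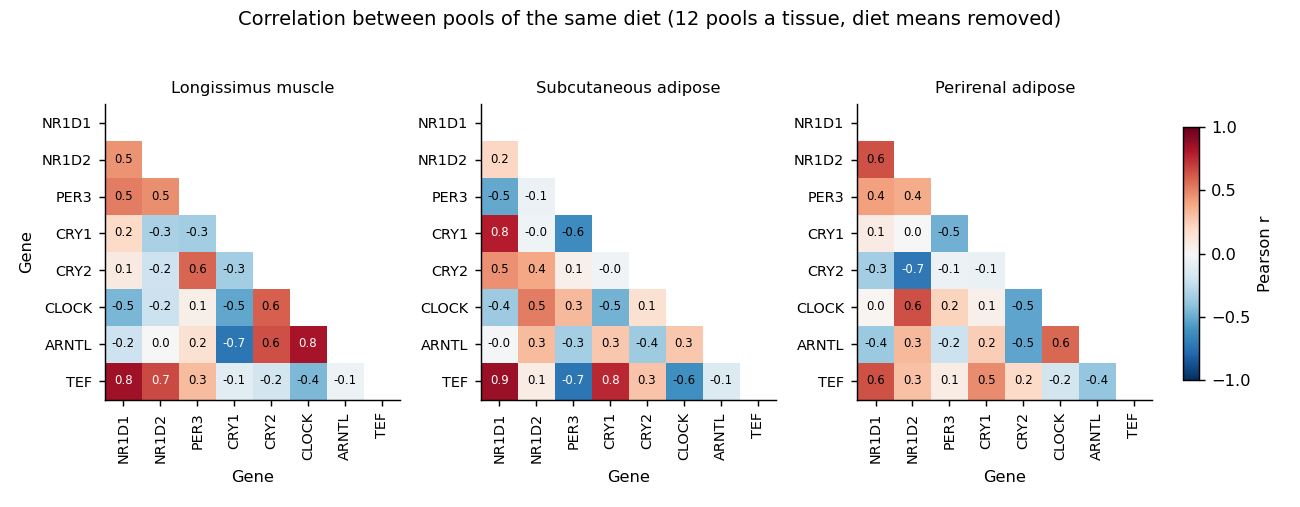
Pearson r between each pair of clock genes over the 12 pools of a tissue after removing diet means; red is positive and blue negative, with r printed to 1 decimal. NR1D1 with TEF is the pair that is high in all 3 panels (0.84, 0.86 and 0.64), and NR1D2 in subcutaneous fat has no r beyond 0.52.

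By the same measure over the 36 libraries, with the mean of each tissue and diet removed, the genes most like NR1D2 among 13321 were GPR107 (r = 0.84), the unnamed ENSOARG00000007396 (0.81), TOR1AIP2 (0.81), ZNF664 (0.80) and PCDH7 (0.79), and the most opposite were PGAP2 (-0.73), LYRM4 (-0.67) and the locus of SNORA70 (-0.65). No member was near them: CLOCK ranked 632 (0.42) and NR1D1 902 (0.37). For ARNTL the nearest were SPOPL (0.83), SNX27 (0.81), PUM2 (0.80), TET1 (0.79) and MED13 (0.79), and the most opposite ENSOARG00000024686 (-0.72), SLC5A2 (-0.71) and RNF167 (-0.71). CLOCK was the member most like ARNTL, at rank 241 (0.55). These values describe the libraries, which share depth and composition, and carry no test.

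Fetal sex was compared within tissues with the diet in the fit, and 0 of 8 members passed FDR 0.05 in any tissue, beside 0.0% of loci in muscle, 0.0% in subcutaneous fat and 0.0223% in perirenal fat. DESeq2 called 0 of 8 in each. At an unadjusted p of 0.05 or less there were 0 members in muscle, PER3 and TEF in subcutaneous fat and PER3 in perirenal fat, among 698, 2635 and 584 loci. PER3 differed, male minus female, by 0.60 ± 0.20 (log2, FDR 0.281) in subcutaneous fat, by 0.45 ± 0.16 (FDR 0.9997) in perirenal fat and by 0.11 ± 0.20 (FDR 0.955) in muscle. TEF in subcutaneous fat differed by -0.45 ± 0.18 (FDR 0.315), and by -0.22 with the muscle marker mean as a covariate. The muscle markers differed by sex in both depots. Their median log2 difference was -2.37 in subcutaneous fat, with 0 of 12 above 0, and 3.39 in perirenal fat, with 12 of 12 above 0. By edgeR 0 of 12 passed FDR 0.05 in each depot, and DESeq2 called 0 and 9. Their part in the sex differences was not tested.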

How the data were processed

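Per the labels and the study's methods, RNA of fetuses of the same sex was pooled, apart from CN F2 with its single fetus, and sequenced as single-end reads. The authors aligned the reads with TopHat2 2.0.4 to the Oar_v3.1 sheep genome, assembled loci with Cufflinks 2.1.1 separately in each tissue and deposited raw counts per locus for each pool. HTSeq is listed without a version or a stated role, and the strand setting of the counting is not given in the sources used here. Because loci were assembled per tissue, spans differ between tissues. The study's own comparisons used Cuffdiff.

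From the counts, loci of the same name were summed. Genes were kept by filterByExpr (minimum count 10, minimum total 15), scaled by TMM and compared with edgeR 4.0.16 quasi-likelihood tests in R 4.3.3, within tissues with all 12 pools in the fit and across tissues in a fit of the named genes shared by the 3 files, with the pool as a block. All FDR values are Benjamini-Hochberg adjusted p-values over all loci tested, with 0.05 as the threshold, and SE values follow from the F statistic. CPM within a tissue and CPM scaled over all 36 libraries are different scales and differ for the same pool. Log2 CPM for correlations used a prior count of 2. DESeq2 1.42.0, other size factors, no filter, a replicate block, fits of 8 pools, the largest locus of a name, a muscle marker covariate and leaving out each pool were tried as alternatives. Scripts were tested on simulated data.

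The rule named all listed members in each tissue, and those that did not pass are given singly or by their range. Other clock genes were named where they passed FDR 0.05 between diets, and GSK3B for the lowest FDR in fat. DBP was named as a relative of TEF. Between tissues RORA, NFIL3 and NPAS2 were picked from the larger number that passed. The genes most and least like NR1D2 and ARNTL were named too. The members, lists and tests were chosen with earlier results of these data known, so none is independent of them. Depth, given with the results, limits the genes of few reads. Of the pairs of pools of the same tissue and diet, 0 agreed within sampling noise.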

Additional observations from a re-analysis of the deposited data

Results flagged for a closer look

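Of 72 groups of 4 pools, 2 held a pool far from the other 3, where about 1 in 20 is flagged by chance. ARNTL in subcutaneous fat was 8.22 CPM in CN pool M2 and 5.80 to 6.14 CPM in the other CN pools, a gap of 0.857 of the range. CRY2 in perirenal fat was 36.4 CPM in CN pool F2 and 24.99 to 26.4 CPM in the other CN pools, a gap of 0.872 of the range.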

How the results depend on the processing

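The single member called in muscle between DG and CN (TEF) became 0 with no filter, with the replicate block and with the 8 pools only, and ranged from 0 to 1 when each pool was left out. Between HY and CN in muscle the count of 1 became 2 with DESeq2 (CRY1 and TEF), 0 with the replicate block and 0 with the 8 pools only, and 0 to 1 with a pool left out. In subcutaneous fat between DG and HY the count of 0 became 1 with DESeq2 (ARNTL) and 0 to 1 with a pool left out. The count of 0 correlations became 1 without HY pool M1 (NR1D2 with NR1D1 in perirenal fat) and was 0 to 1 over the pools left out. No difference that passed the test changed sign, but differences near 0 did. Of these, 6 moved by more than 1 SE: CLOCK in muscle went from 0.39 to -0.03 (HY minus CN) and from -0.10 to 0.31 (DG minus HY) without HY F2, PER3 in muscle from -0.09 to 0.20 (HY minus CN) without CN M1, CRY2 in muscle from 0.09 to -0.17 (DG minus HY) without DG F1, NR1D2 in perirenal fat from -0.21 to 0.25 (HY minus CN) without CN M1, and NR1D1 in subcutaneous fat from -0.24 to 0.04 (male minus female) with the muscle marker covariate. The loci called over all genes moved more. In muscle they were 186 between DG and CN (689 by DESeq2, 2 with the 8 pools only, 9 to 340 with a pool left out) and 536 between HY and CN (1398 by DESeq2, 270 with the replicate block, 30 to 1247 with a pool left out). In subcutaneous fat the 0 between DG and HY became 924 by DESeq2, 281 with the replicate block and 0 to 567 with a pool left out, and the 0 between DG and CN became 261 by DESeq2 and 49 with the muscle marker covariate. In perirenal fat the 0 between DG and CN became 267 by DESeq2, 35 with no filter and 0 to 75 with a pool left out, and the 0 between DG and HY became 97 by DESeq2. Deviations of like-numbered pools had a mean r of -0.0443, 0.191 and 0.0546 in muscle, subcutaneous and perirenal fat (lowest r -0.326, -0.416 and -0.0524). For pools of unlike number the mean r was 0.0168, -0.0676 and -0.0181. The pool labels also give the sex, so the replicate block takes out sex as well. By the study's list, like-numbered pools of different diets hold fetuses of different dams. Whether the numbers pair the samples across diets in another way was not tested. The cause of these changes was not tested. Low counts limit NR1D2 in perirenal fat, CLOCK and ARNTL.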

Other observations

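A locus named MPER1 on chromosome 11 was kept out of the clock genes by its name. It may be PER1, which was not tested. In muscle (27338326 to 27353770, Oar_v3.1) its level was 18.9, 10.04, 13.6 and 14.4 CPM with CN, 48.8, 25.4, 19.1 and 25.2 CPM with DG, and 27.8, 36.2, 17.6 and 20.7 CPM with HY. The DG and CN pools did not overlap, and the log2 difference was 1.06 ± 0.29 (edgeR quasi-likelihood, FDR 0.101). In muscle the span is shared with the unnamed ENSOARG00000019001. In subcutaneous fat the locus spans 300071 bases shared with other loci, and in perirenal fat it is merged with an unnamed gene. These values are thus not those of a single gene with certainty. Between DG and CN the log2 difference was -0.18 ± 0.21 in subcutaneous fat (edgeR, FDR 0.663) and 0.19 ± 0.14 in perirenal fat (FDR 0.734). Between DG and HY in subcutaneous fat it was -0.66 ± 0.21 (FDR 0.154).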
